A study of Mus musculus with 6 samples.

Results

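The genes described here are 10 genes that mark Cajal-Retzius and subplate neurons, the earliest-born neurons of the cerebral cortex. They are Reln, Trp73, Lhx1, Lhx5, Ndnf, Ebf2, Ebf3, Calb2, Nr4a2 and Cplx3. They were chosen by name from what is known of these cells, with earlier results of these data also known. They were found by symbol among the 48709 gene IDs of the count files. All 10 matched 1 gene each. RNA came from the neocortex of C57BL/6 mouse embryos at E15.5. The mutant genotype, Rest(+/deltaExon4), carries 1 Rest allele without exon 4 and is called Rest_het below (3 embryos, 1 library each, titled KO in the labels). It was set against wild-type embryos, called WT (3 embryos, 1 library each). The labels give no sex, litter or preparation batch, and they do not say in which cells or with which driver the deletion was made. The libraries also differ in transgene sequence, since Cre-ERT2 reads occurred in Rest_het libraries and LacZ reads in WT libraries, so an effect of the Rest allele and of these sequences cannot be told apart.

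Cajal-Retzius neurons lie under the pial surface in the marginal zone, the future layer I. They secrete reelin, which binds lipoprotein receptors on migrating neurons and sets the order of the cortical layers. They arise at the edges of the pallium, in the cortical hem, the septum and the pallial-subpallial boundary, and spread over the cortex tangentially. Subplate neurons lie below the cortical plate, receive the first thalamic axons and send pioneer axons out of the cortex. Both populations are small, and many die after birth. REST represses neuronal genes in cells that are not neurons, and the comparison of genotypes asks whether cortical genes differ when 1 Rest allele lacks exon 4.

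Sequence upstream of the start site is shown for Trp73 and Lhx1, because among the genes with a promoter entry these had Rest_het and WT values that did not overlap. Trp73 has 2 annotated starts. The upstream one gives the full-length TAp73 form and the internal one the shorter ΔNp73 form, which prevails in Cajal-Retzius neurons. Gene totals add both forms, so the values below do not tell them apart. Each line holds the 250 bases before a start, from RefSeq on GRCm38.p6, minus strand, printed 5′ to 3′. Capitals mark 3 motifs, searched on both strands. The GC box is GGGCGG. The CCAAT box is spelled by its name. The TATA box is TATAAA.
Trp73 internal start (chr4:154097174-154097423): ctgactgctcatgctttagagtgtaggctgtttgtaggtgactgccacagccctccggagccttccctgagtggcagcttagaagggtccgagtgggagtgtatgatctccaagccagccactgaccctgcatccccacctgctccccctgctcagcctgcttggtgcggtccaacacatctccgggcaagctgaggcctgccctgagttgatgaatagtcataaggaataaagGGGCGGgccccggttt
Trp73 upstream start (chr4:154139876-154140125): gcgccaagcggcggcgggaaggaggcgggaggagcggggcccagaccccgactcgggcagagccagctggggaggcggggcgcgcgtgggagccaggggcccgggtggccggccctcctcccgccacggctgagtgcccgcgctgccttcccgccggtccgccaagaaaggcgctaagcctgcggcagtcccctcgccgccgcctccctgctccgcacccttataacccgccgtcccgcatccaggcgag
Lhx1 (chr11:84525535-84525784): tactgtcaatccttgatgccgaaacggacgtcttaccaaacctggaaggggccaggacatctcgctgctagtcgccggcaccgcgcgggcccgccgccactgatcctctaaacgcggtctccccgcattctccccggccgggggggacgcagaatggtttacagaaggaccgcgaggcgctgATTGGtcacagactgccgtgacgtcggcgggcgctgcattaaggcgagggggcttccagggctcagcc
The internal Trp73 window held a GC box close to its end, the upstream window held none of these motifs, and the Lhx1 window held a CCAAT box on the opposite strand. The 2 Trp73 windows differed in base composition, with 58.4% G and C before the internal start and 77.2% before the upstream start. Entries existed for 6 of the 10 genes (Reln, Trp73, Lhx1, Ebf3, Nr4a2 and Cplx3), with 7 windows in all. GC boxes stood in 4 of the 7 windows and in 32.7% of all 32851 windows, and CCAAT boxes in 2 of the 7 and in 33.8% of all. The core letters of each side of the element that REST binds, CAGCACC and GGACAG, were searched on both strands too. They were in 0 of the 7 windows, against 5.73% and 18.7% of all windows. A match or its absence describes these letters only and says nothing on binding.

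Gene reads per library ranged from 17835117 to 18426652 in Rest_het and from 19996943 to 20753653 in WT. Rest, the targeted gene, had 16.7, 19.0 and 18.6 CPM (reads scaled to a common library total, with TMM factors) in Rest_het libraries, against 21.03, 19.7 and 21.1 CPM in WT libraries. Rest_het minus WT came to -0.19 on the log2 scale (edgeR, adjusted p 0.49), and a gene total does not check the loss of 1 exon. The 10 neocortex markers summed to 1773 to 1930.5 CPM in Rest_het and 1935 to 2216 CPM in WT libraries, and all 10 had reads in every library. Across the 15385 genes tested, edgeR called 19 (0.123%) at an adjusted p under 0.05.

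Levels of the genes were set side by side per exon length, as TPM computed from the counts and the joined exon length in GENCODE M21. A gene whose annotated exons exceed the transcripts present reads too low on this scale. Calb2 was the most abundant of the 10 at 36.0 ± 14.3 TPM (SD over the 6 libraries), a level above that of 73.9% of tested genes. Nr4a2 at 10.8 ± 1.79 TPM and Ndnf at 10.03 ± 0.885 TPM followed, with ranges that overlapped. Lhx1 at 2.78 TPM, Reln at 2.06, Lhx5 at 1.72, Trp73 at 1.67 and Ebf2 at 1.55 TPM lay lower, and each neighbour in this order overlapped the next. Ebf3 at 0.344 TPM was below every library of the genes above it. Reln, the defining product of Cajal-Retzius neurons, lay above only 16.4% of tested genes per exon length. Reln has annotated exons of 23738 bases in all, the longest of the 10. Of the 10 genes, 6 had under 100 reads in every library, so counting error is large for these.

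**Figure D1:**
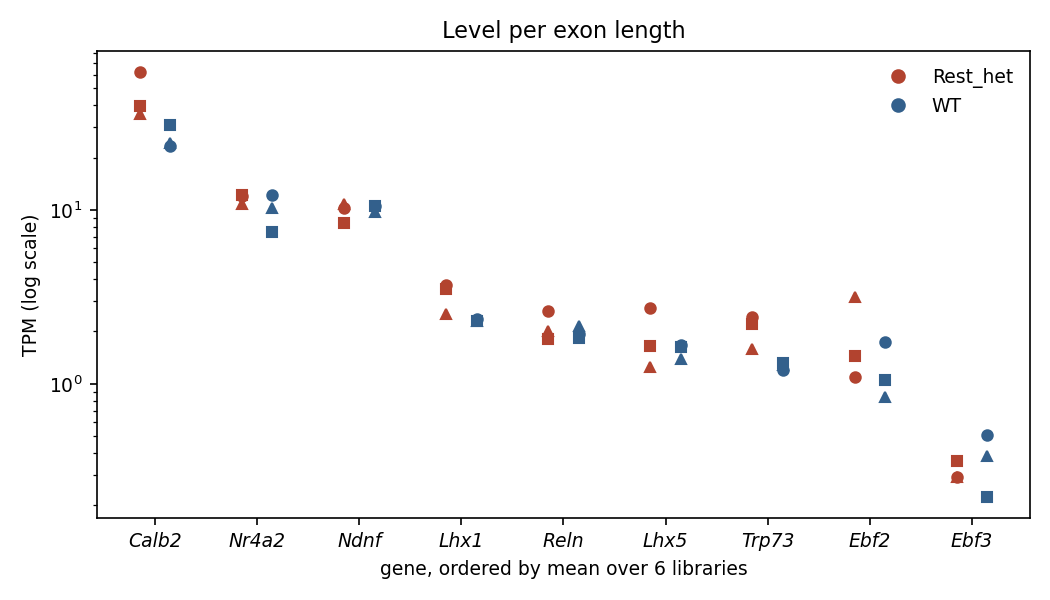
Level of 9 genes in TPM (log axis), ordered by the mean over 6 libraries, with Rest_het points left and WT points right for each gene and marker shape giving the replicate. Calb2 stands apart at 36.0 TPM on average and Ebf3 at 0.344 TPM, and the Rest_het and WT points of most genes intermix; Cplx3, with 1 read in all, is left out.

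The comparison of Rest_het with WT libraries called 0 of the 9 genes that passed the count filter, by edgeR at an adjusted p under 0.05. DESeq2 and limma-voom called 0 as well, and adjusted p-values given without another tool's name are edgeR's. Cplx3 did not pass the filter. Over all tested genes edgeR called 0.065% higher and 0.0585% lower in Rest_het. Before adjustment, 2 of the 9, Calb2 and Trp73, had p under 0.05, both higher in Rest_het. Over all tested genes 11.7% did, 6.98% higher and 4.72% lower. In 3 of the 9, Calb2, Trp73 and Lhx1, every Rest_het value lay above every WT value, and in 0 of the 9 below. Of all tested genes 19.3% did not overlap, 10.4% higher and 8.94% lower. Of the 9, 7 had a log2 fold change above 0 and 2 below, with a median of 0.23 against 0.0054 over all tested genes. In these bulk samples a change in the number of such cells and a change in RNA per cell cannot be told apart.

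**Figure D2:**
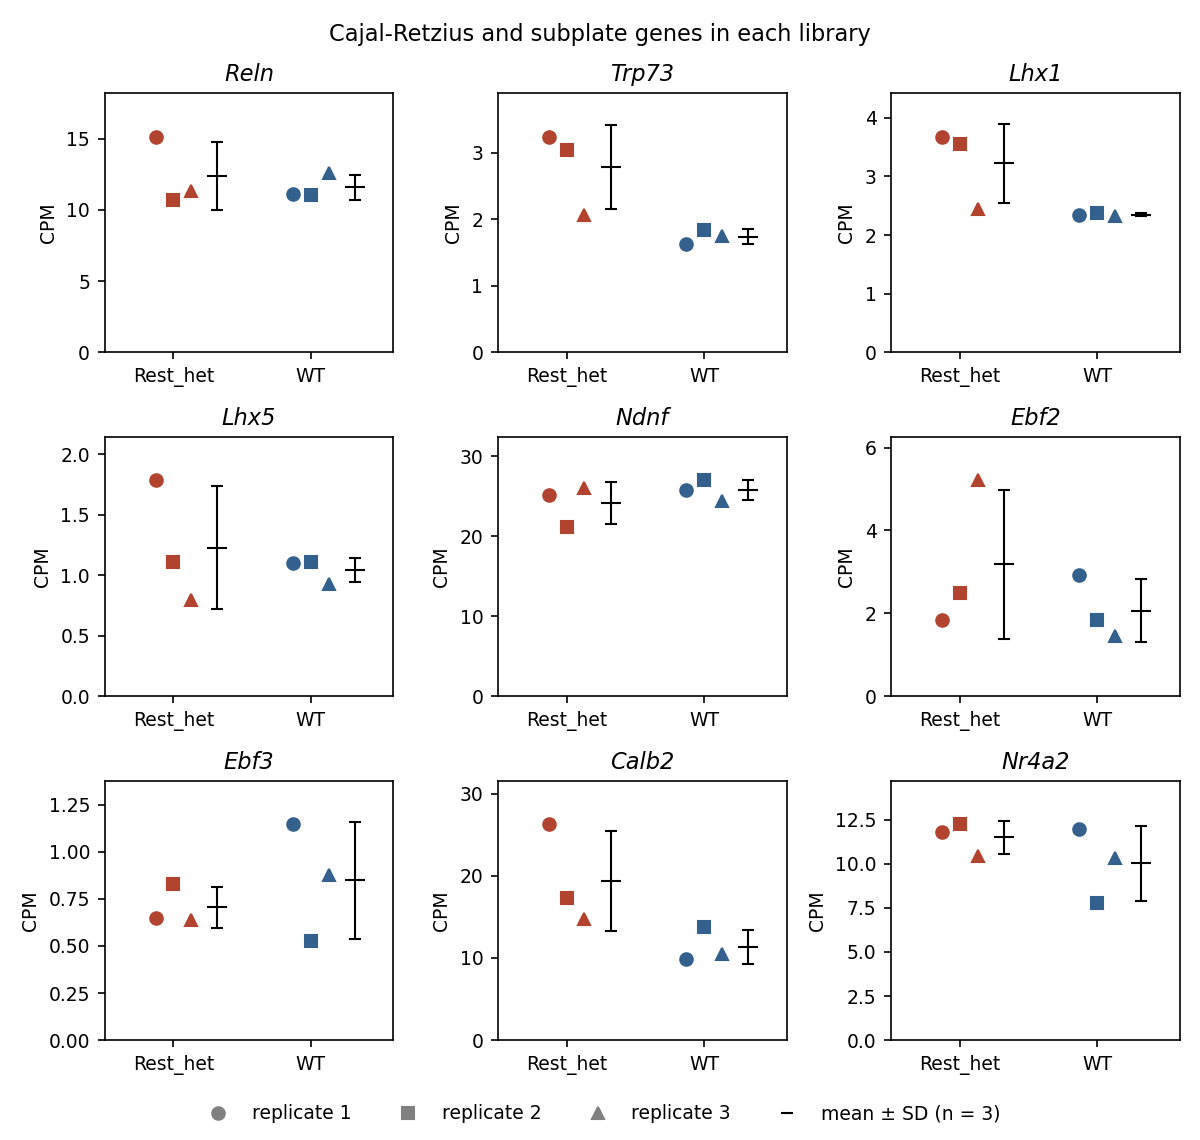
CPM of each gene in each library (linear axes from 0), Rest_het left and WT right in every panel, with marker shape giving the replicate and black bars the mean ± SD of 3 libraries. Calb2, Trp73 and Lhx1 show no overlap between the groups, while Reln, Ndnf, Nr4a2 and the others do.

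The secreted proteins come first. Reln (chromosome 5, 21884454 to 22344702 in GRCm38, minus strand) encodes reelin, the extracellular signal of Cajal-Retzius neurons. It had 15.1, 10.7 and 11.3 CPM in Rest_het replicates 1, 2 and 3, against 11.1, 11.02 and 12.6 CPM in WT replicates 1, 2 and 3. Rest_het replicate 1 was the highest library and Rest_het replicate 2 the lowest, so the mutants spanned the WT range. Reln differed by 0.10 on the log2 scale, with a 95% interval from -0.27 to 0.47 (adjusted p 0.84). Without Rest_het replicate 1 it was -0.07. The antisense gene Gm10475, which shares 246 exon bases with Reln, had at most 9 reads in any library.

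Ndnf (chromosome 6, 65671590 to 65712326) encodes neuron-derived neurotrophic factor, a secreted protein made in the marginal zone by Cajal-Retzius neurons and later by layer I interneurons. It had 25.1, 21.1 and 26.0 CPM in Rest_het libraries, against 25.8, 27.0 and 24.4 CPM in WT libraries. The groups overlapped and this was the most even gene of the set. Its log2 fold change of -0.09 had the narrowest interval of the 9, from -0.34 to 0.16 (adjusted p 0.76). In fold terms that interval ran from 0.788 to 1.11.

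Calb2 (chromosome 8, 110137502 to 110168210) encodes calretinin, a calcium-binding protein of Cajal-Retzius neurons that interneurons and thalamic neurons also make. It had 26.3, 17.2 and 14.7 CPM in Rest_het libraries, from 486, 311 and 277 reads. WT libraries had 9.89, 13.7 and 10.5 CPM, from 207, 260 and 203 reads. Every mutant lay above every WT library, but the gap was narrow, 14.7 in Rest_het replicate 3 against 13.7 in WT replicate 2, and Rest_het replicate 1 stood well above the rest. The means were 19.4 ± 6.08 CPM in Rest_het and 11.4 ± 2.06 CPM in WT libraries (SD, n = 3 each). The log2 fold change was 0.77 with SE 0.23 and a 95% interval from 0.24 to 1.30, and it was not called (adjusted p 0.35). It was 0.49 without Rest_het replicate 1, a fall in size of over 1.5 times, and 0.95 without Rest_het replicate 3. DESeq2 gave an adjusted p of 0.099. Calb2 lies on 1 of the 3 chromosomes that hold the 19 called genes, outside the stretch from 84856989 to 102865798 that they span on chromosome 8.

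Among the transcription factors, Trp73 (chromosome 4, 154056253 to 154140208, minus strand) encodes p73, a relative of p53 that Cajal-Retzius neurons of the hem need for survival; its starts are those printed above. It had 60, 55 and 39 reads in Rest_het libraries and 34, 35 and 34 reads in WT libraries. In CPM these were 3.24, 3.05 and 2.07 in Rest_het, against 1.62, 1.85 and 1.75 in WT. Rest_het replicates 1 and 2 were high together, and replicate 3 lay close to the WT libraries. Counting error alone gives Rest_het replicate 3 an exact 95% Poisson interval of 1.47 to 2.83 CPM, which takes in all 3 WT values. The log2 fold change was 0.68 with SE 0.26 and a 95% interval from 0.08 to 1.27 (adjusted p 0.40). With single libraries left out it ranged from 0.55 to 0.86. The antisense gene Trp73os had 1 read in all 6 libraries together.

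Lhx1 (chromosome 11, 84518284 to 84525535, minus strand) and Lhx5 (chromosome 5, 120431699 to 120441223) encode related LIM-homeodomain factors of Cajal-Retzius neurons, which diencephalic neurons express too. Lhx1 had 3.68, 3.55 and 2.44 CPM in Rest_het libraries, against 2.34, 2.37 and 2.32 CPM in WT libraries. The WT values were nearly equal, and Rest_het replicate 3 was barely above them, as for Trp73. Lhx1 differed by 0.46 on the log2 scale, with a 95% interval from -0.08 to 0.998 (adjusted p 0.48). Lhx5 had 1.78, 1.11 and 0.797 CPM in Rest_het libraries, against 1.10, 1.11 and 0.927 CPM in WT libraries. The mutants held both the highest and the lowest value, and the groups overlapped. Its log2 fold change of 0.23 (adjusted p 0.83) turned to -0.14 without Rest_het replicate 1. Lhx5 rests on 15 to 33 reads per library. It shares 69 exon bases with the antisense gene Gm27199, which had 28, 21 and 11 reads in Rest_het and 18, 13 and 19 reads in WT libraries. Reads within the shared bases cannot be told apart without strand, and ambiguous reads were left out. Lhx5 also lies inside the stretch of chromosome 5, from 107106570 to 138107822, that holds 6 of the called genes.

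Ebf2 (chromosome 14, 67233292 to 67430918) and Ebf3 (chromosome 7, 137193673 to 137314445, minus strand) encode related early B-cell factors found in Cajal-Retzius neurons. Ebf2 had 1.84, 2.49 and 5.21 CPM in Rest_het libraries, against 2.92, 1.85 and 1.44 CPM in WT libraries. Rest_het replicate 3 stood apart as the highest, with WT replicate 1 next. The log2 fold change of 0.62 had a wide interval, from -0.38 to 1.62 (adjusted p 0.59), and was 0.06 without Rest_het replicate 3. Ebf3 had 0.649, 0.831 and 0.637 CPM in Rest_het libraries, against 1.15, 0.527 and 0.875 CPM in WT libraries. It rests on 10 to 24 reads per library, and its groups overlapped. The log2 fold change was -0.27 with an interval from -1.16 to 0.61 (adjusted p 0.81), and 0.0053 without WT replicate 1.

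Subplate identity is represented by Nr4a2 and Cplx3. Nr4a2 (chromosome 2, 57106830 to 57124003, minus strand) encodes the orphan nuclear receptor Nurr1. It had 11.8, 12.2 and 10.5 CPM in Rest_het libraries, against 12.0, 7.75 and 10.4 CPM in WT libraries. WT replicate 2 alone lay low, and the groups overlapped. Nr4a2 differed by 0.20 on the log2 scale, with a 95% interval from -0.21 to 0.60 (adjusted p 0.68), and it was 0.04 without WT replicate 2. Cplx3 (chromosome 9, 57599992 to 57606281, minus strand) encodes a complexin, a protein that binds the SNARE complex of vesicle release. It had 1 read in Rest_het replicate 1 and 0 in the other 5 libraries. A count of 0 allows up to 3 reads, or 0.145 to 0.168 CPM without TMM scaling, so Cplx3 was not detectable at this depth in 5 libraries, and no difference is given.

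**Figure D3:**
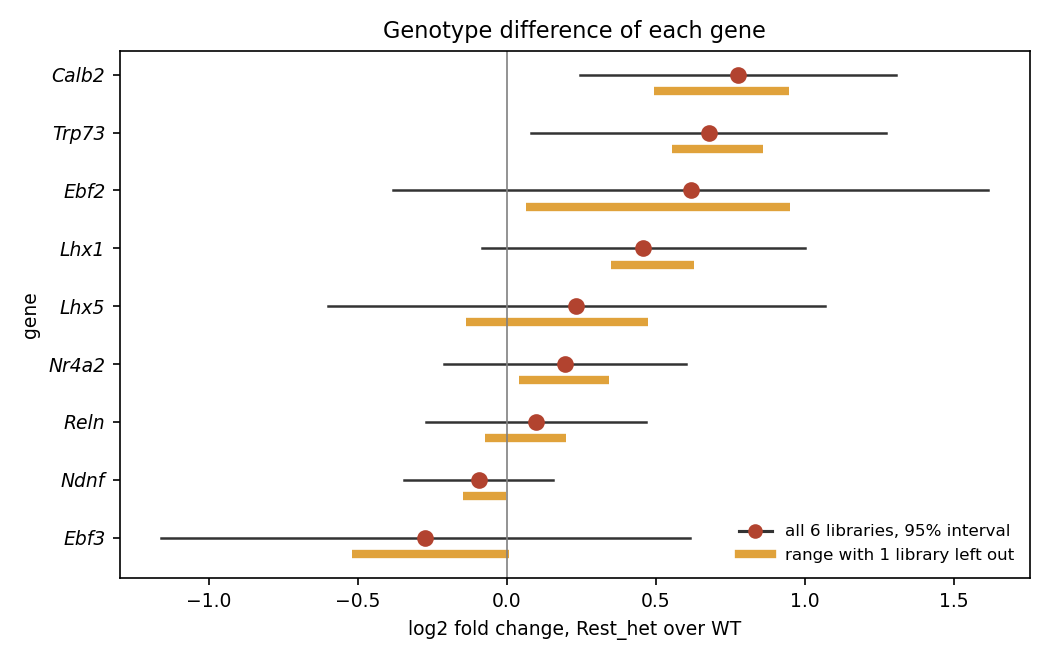
Log2 fold change of Rest_het over WT for the 9 genes tested, with 95% intervals as thin lines and the range with 1 library left out as thick bars under them. The intervals of Calb2 (0.24 to 1.30) and Trp73 (0.08 to 1.27) lie above 0 before adjustment for the genes tested, and the bars of Reln, Lhx5 and Ebf3 cross 0.

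The libraries ranked the genes unevenly. Rest_het replicate 1 was the highest library for 5 of the 9 tested genes, Reln, Trp73, Lhx1, Lhx5 and Calb2, and it was the highest for 16.8% of all tested genes. Markers of the places where Cajal-Retzius neurons arise were uneven too. Of 12 such genes, 7 were highest in the same library, among them Fgf8 with 1 read in all, and 5 of the 12 did not pass the count filter. Of the other 5, Lmx1a was highest in Rest_het replicate 3, Wnt3a in Rest_het replicate 2, and Wnt2b, Rspo3 and Dbx1 in WT libraries. Rspo3, a Wnt pathway activator, had 34.7, 28.5 and 37.4 CPM in Rest_het libraries, against 34.8, 38.1 and 33.9 CPM in WT libraries, with overlap. Wnt5a had 13.1, 12.8 and 11.4 CPM in Rest_het libraries, against 10.8, 7.07 and 7.93 CPM in WT libraries, without overlap (adjusted p 0.36). Zic1, a zinc-finger factor of the hem and septum, had 17.9 CPM in Rest_het replicate 1 and 4.54 and 7.06 CPM in the other mutants, against 3.11 to 5.11 CPM in WT libraries. Fgf15, a growth factor of the septal and ventral midline, had 7.62, 1.27 and 0.691 CPM in Rest_het libraries, against 0.382, 0.105 and 0.309 CPM in WT libraries. Wnt8b, a ligand of the hem and medial wall, had 73, 13 and 7 reads in Rest_het libraries, against 3, 0 and 8 reads in WT libraries. Of the 7 that passed the filter, edgeR called 0, and 3 had an unadjusted p under 0.05, all higher in Rest_het. Of all tested genes, 6.98% had such a p and lay higher. The 7 log2 fold changes had a median of 0.59, with 5 above 0 and 2 below. Summed over the list, Rest_het libraries had 50.04 to 83.7 CPM and WT libraries 48.3 to 54.7 CPM. The part of these tissues in the values of Calb2, Trp73 and Lhx1 was not tested.

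Other cells that express some of the same genes also varied. The 4 hippocampal markers summed to 131 to 174 CPM in Rest_het and 104 to 141 CPM in WT libraries. Of the 4, 3 had an unadjusted p under 0.05, all higher in Rest_het, against 6.98% of all tested genes. The 7 thalamic and hypothalamic markers summed to 157 to 271 CPM in Rest_het and 173 to 259 CPM in WT libraries. Lhx9, a LIM-homeodomain gene of the thalamus and the gene of this list with the smallest p, had 10.9, 14.4 and 6.16 CPM in Rest_het libraries, against 5.64, 5.38 and 4.17 CPM in WT libraries (adjusted p 0.35). Its groups did not overlap, and Rest_het replicates 1 and 2 were the highest libraries, as for Trp73 and Lhx1. Olig3, a thalamic progenitor gene, had 3, 118 and 11 reads in Rest_het and 0, 4 and 3 reads in WT libraries. Gbx2, a defining thalamic gene, had 5, 1 and 0 reads in Rest_het and 0 in every WT library. Olig3 and Gbx2 did not pass the count filter. Of the 4 genes of this list that did, 3 log2 fold changes were above 0 and 1 below, with a median of 0.09. Tcf7l2 differed by 0.04, Slc17a6 by 0.15 and Rora by -0.15, each with overlapping groups. The 11 interneuron and ganglionic eminence markers summed to 439 to 710.2 CPM in Rest_het and 425 to 528 CPM in WT libraries. The sum was highest in Rest_het replicate 2. The 9 meningeal markers summed to 425, 228 and 583 CPM in Rest_het libraries, against 553, 221 and 320.5 CPM in WT libraries. Rest_het replicate 3 and WT replicate 1 were the highest 2 libraries for these, as they were for Ebf2. Choroid plexus markers spanned 8.37 to 376 CPM in Rest_het and 3.22 to 58.2 CPM in WT libraries, and those of the striatum 318 to 544 CPM in Rest_het and 323 to 495 CPM in WT libraries. Of the 49 tested genes in these lists and in the neocortex list, edgeR called 0. An unadjusted p under 0.05 was found for 8 of the 49 and for 11.7% of all tested genes. In the neocortex list 1 log2 fold change was above 0 and 9 were below, with a median of -0.12. Nkx2-1, a ventral forebrain gene in these lists, was not among the 49, since it did not pass the count filter. DESeq2 and edgeR without that filter, each over 28794 genes, called it, with 2.92, 1.83 and 0.372 CPM in Rest_het and 0.0956, 0.316 and 0.103 CPM in WT libraries. The part of these cells in the results above was not tested.

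**Figure D4:**
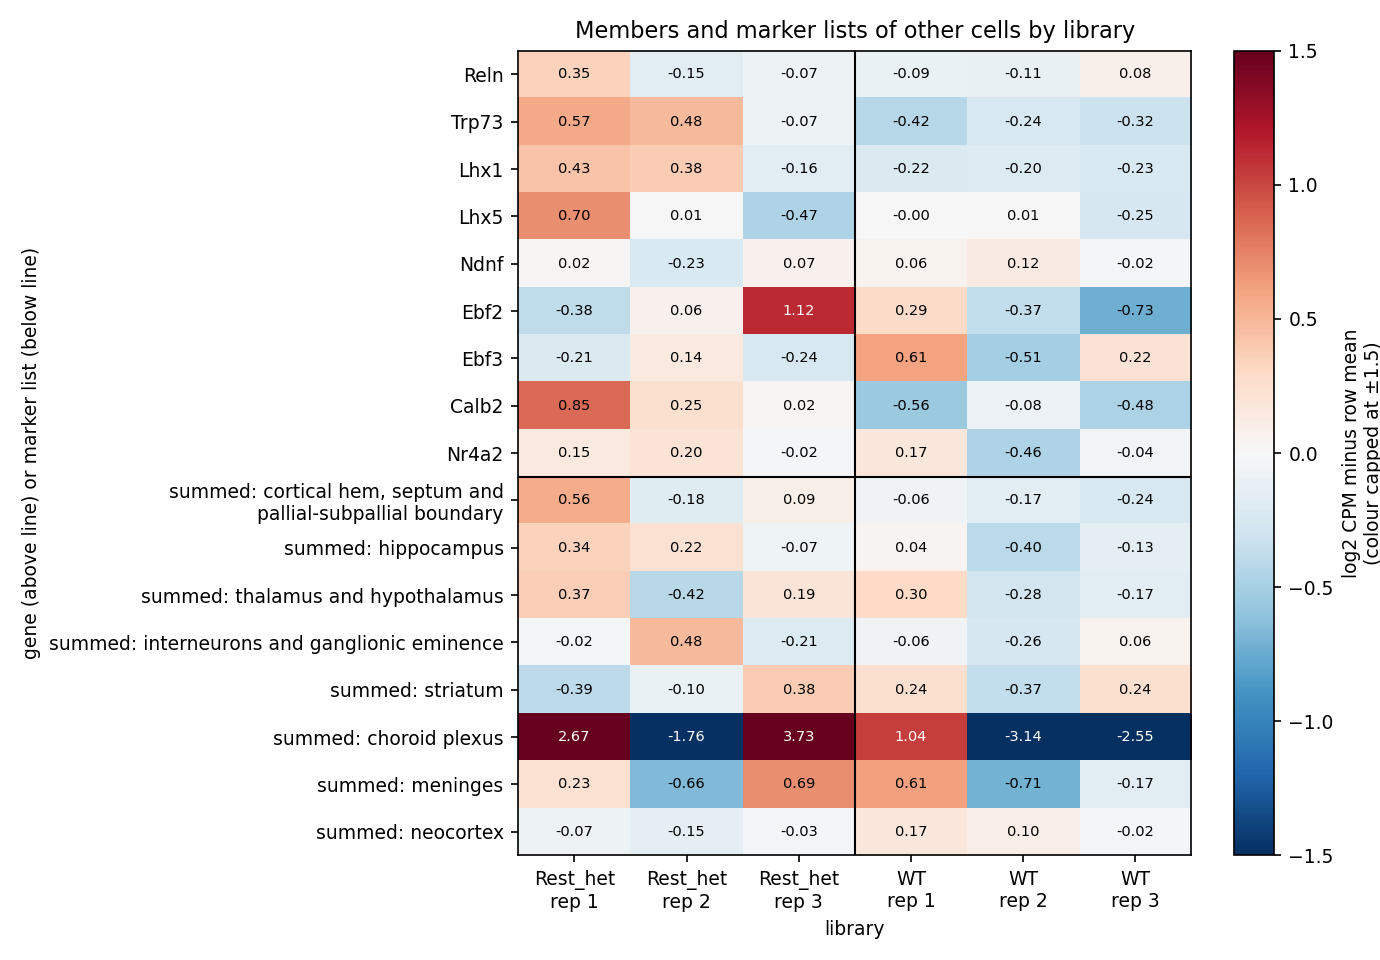
Log2 CPM minus the mean of its row for the 9 tested genes and for the summed CPM of 8 marker lists, by library, with Rest_het left of WT and colour capped at 1.5 either way. Rest_het replicate 1 is the highest library for Reln, Trp73, Lhx1, Lhx5 and Calb2. The same holds for 3 summed lists: hem, septum and boundary, hippocampal, and thalamic and hypothalamic markers. It is also high for the summed choroid plexus markers (2.67). Rest_het replicate 3 is the highest library for Ebf2 and for the summed choroid plexus (3.73), meningeal (0.69) and striatal (0.38) markers.

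Further Cajal-Retzius and subplate markers were taken from lists. Of 9 further Cajal-Retzius genes tested, edgeR called 0, with 2 at an unadjusted p under 0.05, both higher in Rest_het. Of all tested genes, 6.98% had such a p and lay higher. The median log2 fold change of the 9 was 0.63, with 7 above 0 and 2 below. The 4 with the smallest unadjusted p, all above 0, are given here. Barhl2, a homeobox gene, had 2.70, 10.9 and 4.09 CPM in Rest_het libraries, against 2.15, 1.11 and 1.65 CPM in WT libraries (adjusted p 0.35). Rest_het replicate 2 was far above the others, and DESeq2 called it with an adjusted p of 0.027. Cacna2d2, a calcium channel subunit gene, had 3.30, 3.27 and 1.33 CPM in Rest_het libraries, against 1.77, 1.58 and 1.596 CPM in WT libraries. Its mutants 1 and 2 were high together and mutant 3 was the lowest library of all (adjusted p 0.49). Zcchc12, a zinc-finger cofactor gene, lay 0.81 higher on the log2 scale (adjusted p 0.38), and Mab21l1 lay 0.63 higher (adjusted p 0.49). Without Rest_het replicate 2 these values were 0.50 for Zcchc12 and 0.34 for Mab21l1, and Barhl2 had 1.05 in place of 1.84.

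The further subplate genes were listed with earlier results of these data known, so a call among them is no independent evidence. Over all tested genes edgeR called 0.065% higher in Rest_het. Of 13 further subplate genes tested, edgeR called 1, higher in Rest_het, and the median log2 fold change was -0.08. That gene, Tmem163, a zinc transporter, had 85.8, 90.2 and 79.9 CPM in Rest_het libraries, against 1.67, 1.74 and 1.91 CPM in WT libraries (adjusted p 1.7e-07). Every Rest_het library lay far above every WT library. Tmem163 overlaps Mgat5 on the opposite strand, and the counts carry no strand. Tmem163 is 1 of 9 called genes on chromosome 1, and it ends the stretch from 68115195 to 127679548 that they span. Rcan2, a regulator of calcineurin, had 10.97, 13.1 and 8.61 CPM in Rest_het libraries, against 7.07, 5.59 and 6.39 CPM in WT libraries, without overlap (adjusted p 0.32). Unc5c, a netrin receptor gene, had 9.57, 9.53 and 13.3 CPM in Rest_het libraries, against 14.4, 14.2 and 17.8 CPM in WT libraries, also without overlap (adjusted p 0.36). Over the 13, 4 log2 fold changes were above 0 and 9 below.

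The reelin pathway downstream of Reln was measured through 22 genes, of which edgeR called 0. Before adjustment 3 had p under 0.05 and lay higher in Rest_het, and 1 lay lower. Of all tested genes, 6.98% had such a p and lay higher, and 4.72% lay lower. The median log2 fold change of the 22 was 0.01. The receptor gene Vldlr averaged 18.4 ± 0.270 CPM in Rest_het and 20.97 ± 4.20 CPM in WT libraries (SD, n = 3 each). The receptor gene Lrp8 averaged 56.1 ± 6.58 CPM in Rest_het and 61.7 ± 4.90 CPM in WT libraries (SD, n = 3 each). The adaptor gene Dab1, which the receptors recruit, averaged 209 ± 25.8 CPM in Rest_het and 229 ± 8.13 CPM in WT libraries (SD, n = 3 each). These 3 had log2 fold changes of -0.19, -0.14 and -0.14 with edgeR adjusted p of 0.62, 0.64 and 0.61. Limk1, a kinase that acts on the actin cytoskeleton at the end of the pathway, had 18.6, 15.6 and 12.0 CPM in Rest_het libraries, against 3.87, 5.54 and 7.36 CPM in WT libraries. Its groups did not overlap, with a log2 fold change of 1.46; edgeR did not call it (adjusted p 0.17) and DESeq2 did (adjusted p 1.9e-05). Limk1 lies inside the same stretch of chromosome 5 as Lhx5. Adamts4, which encodes a protease that cleaves reelin, differed by 0.66 on the log2 scale (adjusted p 0.36), and Socs7, which takes part in the turnover of Dab1, by -0.35 (adjusted p 0.36).

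The genes most like Reln, Trp73 and Nr4a2 across the 6 libraries were sought by the root mean square difference of centred log2 CPM over 13788 tested genes with a mean of at least 1 CPM. For Reln they were Tedc2, Dagla and Wasf3, with differences of 0.033 to 0.046 against a spread of 0.17 of Reln about its own mean. For Trp73 they were Gm17399, Islr2 and Gm26917, with differences of 0.036 to 0.064 against a spread of 0.37. Islr2 had 15.03, 14.5 and 9.35 CPM in Rest_het libraries, against 7.17, 8.70 and 7.83 CPM in WT libraries, the same order of mutants as Trp73. For Nr4a2 they were Ap5z1, Dcbld1 and St3gal4, with differences of 0.060 to 0.069 against a spread of 0.22. None of these 9 genes is in the lists used here.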

How the data were processed

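Poly-A-primed RNA from 6 neocortices was amplified for 12 PCR cycles, per the labels' protocols, with neither strand nor molecular identifiers kept. The authors deposited raw counts of reads per gene for each library, and the submitters' processing notes name STAR 2.5.2a and the build GRCm38.p4. Column values without strand were used, because the reads of the strand-specific columns split evenly. Rows that name no gene (unmapped 1.21 to 1.45%, multimapping 6.29 to 7.48%, no feature 21.4 to 26.9%, ambiguous 2.54 to 2.85%) and spike and transgene rows were left out of the tests.

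Counts were filtered with filterByExpr (15385 genes kept), scaled by TMM and tested with edgeR 4.0.16 quasi-likelihood in R 4.3.3, Rest_het over WT, two-sided, with Benjamini-Hochberg adjustment over all genes tested and a threshold of 0.05. The script was tested on simulated data. Alternatives were DESeq2 1.42.0 (without filterByExpr, on all 28794 genes with at least 1 read, with its own independent filtering), limma-voom (limma 3.58.1), DESeq2 size factors, other count filters, a replicate block and leaving out each library. TPM used joined exon lengths from GENCODE M21. Intervals of single libraries are exact Poisson and, like the floor of 3 reads, cover counting error only.

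The genes and lists were chosen with earlier results of these data known. The text names all 10 genes, Rest, for each list any called gene or else up to 4 with the smallest unadjusted p, and the 3 genes most like Reln, Trp73 and Nr4a2. Beyond that rule, Rcan2, Unc5c, Wnt8b, Wnt3a, Wnt2b, Rspo3, Dbx1, Fgf8, Gbx2, Olig3, Nkx2-1, Trp63, Ebf1, Cplx4, Vldlr, Lrp8 and Dab1 were named after their values were seen.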

Additional observations from a re-analysis of the deposited data

Results flagged for a closer look

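Transgene reads occurred in sequences outside the gene counts, and they split with genotype. Cre-ERT2, a drug-inducible recombinase, had 10, 16 and 17 reads in Rest_het libraries, 43 in all, and 0 reads in each WT library. LacZ, a bacterial reporter gene, had 0 reads in each Rest_het library and 27, 51 and 43 reads in WT libraries, 121 in all. The part of these sequences in the values of the 10 genes was not tested.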

How the results depend on the processing

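The count of called genes among the 10 was 0 under every alternative run. Over all genes the count was 19; it was 131 with DESeq2, which changes both the test and the count filter (28794 genes in place of 15385), 107 with edgeR and no count filter (28794 genes), and 6 with the replicate block, and 12 to 35 with single libraries left out (12 when WT replicate 1 was dropped, 35 for WT replicate 2 and 32 for Rest_het replicate 3). Deviations from the group means correlated at 0.011, 0.037 and -0.144 for same-numbered libraries, and from -0.17 to 0.17 for different-numbered ones. That cannot exclude a pairing, and the labels give no litter or preparation batch. With the block Calb2 had a log2 fold change of 0.74 and Trp73 of 0.66. With single libraries left out the sign turned for Reln (-0.074 to 0.20), Lhx5 (-0.14 to 0.47), Ebf3 (-0.52 to 0.0053), Rora (-0.44 to 0.024), Tcf7l2 (-0.21 to 0.33), Foxc1 (-0.90 to 0.24), Igf2 (-0.051 to 0.78), Col1a2 (-0.10 to 0.77), Tedc2 (-0.11 to 0.14), Dagla (-0.068 to 0.22), Wasf3 (-0.014 to 0.28) and Ap5z1 (-0.056 to 0.26). The cause was not tested. Barhl2, Limk1 and Fgf15 passed the threshold with DESeq2 (adjusted p 0.027, 1.9e-05 and 0.0040) and with no count filter (adjusted p 0.039, 0.0011 and 0.021). The other 729 of 750 recomputed values for 63 genes kept their sign and their side of the threshold. Ebf3 gave no value under the CPM filter, and Cplx3 gave none at all. Low counts limit Trp73, Lhx1, Lhx5, Ebf2, Ebf3 and Cplx3, each with under 100 reads in every library.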

Other observations

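Family relatives of the 10 genes were measured too, and edgeR called 0 of the 8 tested. An unadjusted p under 0.05 was found for 2 of the 8, 1 higher and 1 lower in Rest_het, and for 11.7% of all tested genes. Calb1, which encodes the calcium-binding protein calbindin, had 7.40, 24.6 and 10.4 CPM in Rest_het libraries, against 5.02, 4.90 and 8.60 CPM in WT libraries (log2 fold change 1.19, edgeR adjusted p 0.39). Rest_het replicate 2 stood far above the rest, the groups overlapped, and the log2 fold change was 0.53 without that library. Cplx1, a complexin of fast synapses, had 46.5, 42.3 and 48.7 CPM in Rest_het libraries, against 54.2, 54.7 and 59.1 CPM in WT libraries, with no overlap (log2 fold change -0.29, edgeR adjusted p 0.35). Like Lhx5 and Limk1, Cplx1 lies inside the stretch of chromosome 5, from 107106570 to 138107822, that holds 6 of the called genes. Cplx2, the most abundant complexin gene by CPM, averaged 1544 ± 109 CPM in Rest_het and 1455 ± 70.2 CPM in WT libraries (SD, n = 3 each). Cplx4, like Cplx3 a complexin gene of retinal ribbon synapses, had 0 reads in all 6 libraries. Ebf1 ran from 47.4 to 201 CPM among Rest_het libraries and from 32.6 to 120 CPM among WT libraries. Trp63, a relative of Trp73, had 5, 3 and 3 reads in Rest_het and 1, 1 and 0 reads in WT libraries.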
